A study of Arabidopsis thaliana with 9 samples.

Results

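The transcripts of bHLH49 loss-of-function mutant roots were compared with those of wild-type roots of Arabidopsis thaliana ecotype Col-0. The comparison takes the 3 arrays titled as mutant and the 3 titled as wild type, 6 of the 9 arrays of the study, chosen by their titles. The other 3 arrays are of a line that overexpresses bHLH49. All plants were 4-day-old seedlings grown on half-strength Murashige and Skoog plates under long days, and RNA of their roots, called root tips in one label, was hybridised as biotin-labelled cDNA. The labels give neither the allele of the mutant, nor the promoter of the overexpressor, nor whether the repeats are plants grown apart. The p-values therefore rest on array-to-array spread alone, part of which may be technical. Transgenic seed was selected on an antibiotic, and the labels do not say which of the 3 genotypes were plated on one.

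bHLH49 is a transcription factor of the basic helix-loop-helix class, proteins that bind short DNA boxes as pairs and are shut off when they pair with relatives that cannot bind DNA. The series title places it in a module of such proteins under auxin control in the embryo and suspensor, the stalk that carries the embryo. In the young root the best known bHLH factors set root hair growth, vascular tissue and the response to scarce iron, and most of the gene groups described here belong to the root surface and its cell walls.

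The values are log2 signals, in which a difference of 1 is a 2-fold ratio. Of 38408 probe sets, 16722 were paired with exactly 1 gene and stand for 16548 genes, and the remainder were tested without a name. The 9 arrays had medians from 5.85 to 5.92, and lower quartiles from 3.65 to 3.70, below which a signal is called dim here. bHLH49 itself was paired with 0 probe sets, so the labels of the 2 lines were not checked by its level. A gene is called measured here only where a probe set was paired with it alone, and other genes may lie among the probe sets without a name. Root hair genes were bright in wild type, up to 11.56. Of the root cap markers 0 of 10, and of the markers of endodermis and suberin 0 of 31, had such a pairing, so their levels are not known. On the second principal component, with 15.8% of the variance, the mutant arrays lay at -18.3, -12.2 and -16.9 and the wild-type arrays at 40.4, 20.3 and -3.92. Wild-type array 3 thus lay closest to the mutant, and its part in the results below is given as measured.

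The mutant differed little from wild type in single transcripts. Only 9 probe sets passed an adjusted p of 0.05 (limma, Benjamini-Hochberg over all probe sets), 0.0234% of those tested. Of these, 6 were higher in the mutant (0.0156%) and 3 lower (0.00781%), and just 1 carried a gene name, 0.00604% of the measured genes. At an unadjusted p under 0.05 there were 3240 probe sets, 8.44%, with 1674 higher and 1566 lower in the mutant. On simulated arrays with the same spreads, the fit found 72.8% of 2-fold and 92.2% of 4-fold changes among 200 changed probe sets of 38408. Those changes were exact shifts in independent random noise, so the shares need not hold for the real arrays. Among the real genes 2-fold or more apart, 11 higher and 3 lower, 1 passed.

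Over the 16548 measured genes the median difference was -0.01 on the log2 scale, with quartiles of -0.08 and 0.07, and 52.1% of genes lay below 0. A 2-fold or larger difference was reached by 11 genes higher in the mutant and 3 lower. For 11.6% of genes all 3 mutant arrays lay to one side of all 3 wild-type arrays, 5.38% higher and 6.27% lower. Of the 989 of these with an unadjusted p under 0.05, wild-type array 3 was the wild-type array nearest to the mutant for 508, or 51.4%, wild-type array 1 for 255 and wild-type array 2 for 226. The unequal shares mean that, gene by gene, the third wild-type array most often set the gap. In the sentences below "no overlap" refers to this separation of all 3 arrays from all 3, and a gene is said to have risen or fallen only where it passed the adjusted p.

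The named gene that fell was AT5G35940, a member of the jacalin-related lectins, proteins that bind mannose and similar sugars. Its log2 signal was 7.76, 7.96 and 8.10 on the mutant arrays, against 9.18, 9.39 and 9.43 on the wild-type arrays. The groups were separated by about 1 unit, and the fall was 1.39 ± 0.13 on the log2 scale (SE), a level 0.381 times that of wild type (limma adjusted p = 0.0318). The overexpressor arrays, at 8.33, 7.90 and 8.15, lay with the mutant, and overexpressor minus mutant was 0.19 (limma adjusted p = 0.561). The call of AT5G35940 did not hold on fewer arrays: without each of the 6 mutant and wild-type arrays in turn the difference stayed between -1.47 and -1.30, and in 0 of 6 such fits did it pass.

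Of the 44 jacalin-related lectins of Arabidopsis listed here, 32 were measured, and AT5G35940 was the 1 that fell. Their median difference was -0.01, with 12 members above 0 and 20 below, and 6 members were higher and 2 lower without overlap, 25.0% beside 11.6% of all genes. The balance turned to 17 above and 15 below without wild-type array 2, wild-type array 3 or mutant array 2. AT1G52120, another lectin of this family, had 5.07, 4.97 and 4.92 on the mutant arrays, against 4.19, 3.99 and 4.11 on the wild-type arrays. This gene lay on the opposite side from AT5G35940, by 0.89 ± 0.13 (SE), with a limma adjusted p of 0.224. AT1G60110 (0.55) and AT5G49850 (0.48) were higher and AT1G33790 (-0.37) was lower without overlap. The widest differences of the family thus lay in both directions. The family was listed after the leading genes were seen, so AT5G35940 and AT1G52120 were separated by choice.

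The other 8 called probe sets carry no gene name here, and were singled out after their values were seen. Probe set 13381663 had the largest rise, with 8.12, 8.06 and 8.35 on the mutant arrays, against 5.30, 4.98 and 5.06 on the wild-type arrays. The gap of 3.06 ± 0.10 (SE) is 8.35-fold (limma adjusted p = 9.26e-05), and it passed the threshold in all 15 alternative fits that held it. Its overexpressor arrays were higher still, at 8.64, 8.66 and 8.64. With each of the 6 arrays left out in turn, 13321185 passed in 1 of 6 fits, 13342869 in 2, and 13356803, 13416502 and 13468163 in 0. Over all alternative fits that held them, these 5 passed in 7 of 14, 8 of 14, 8 of 15, 7 of 15 and 6 of 14, in that order.

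Probe sets 13321185, 13322897 and 13325283 hold identical values on all 9 arrays and count as 1 measurement. They had 5.57, 5.67 and 5.72 on the mutant arrays, against 4.13, 4.36 and 4.62 on the wild-type arrays, a rise of 1.28 ± 0.12 (SE; limma adjusted p = 0.0318). The overexpressor arrays were at the mutant level, with a mean of 5.71.

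In 4 called probe sets the 2 lines parted, by the test of overexpressor against mutant, in which 1.83% of all probe sets were called. Probe set 13342869 had 6.23, 6.17 and 6.19 on the mutant arrays, against 5.15, 5.14 and 5.11 on the overexpressor arrays and 5.23, 5.04 and 5.27 on the wild-type arrays. Probe set 13468163 was of the same kind, with means of 6.45 in the mutant, 5.33 in the overexpressor and 5.52 in wild type. In both the mutant stood above the other groups, with overexpressor minus mutant at -1.06 (limma adjusted p = 0.00088) and -1.11 (limma adjusted p = 0.00162). Probe set 13356803 had 7.92, 7.94 and 7.89 on the mutant arrays, against 9.32, 9.64 and 9.51 on the overexpressor arrays and 8.97, 8.91 and 8.92 on the wild-type arrays. Probe set 13416502 had means of 7.65 in the mutant, 10.17 in the overexpressor and 8.45 in wild type. Both lay below wild type in the mutant and above it in the overexpressor, whose own difference from wild type was called in each (limma adjusted p = 0.0207 and 0.000131). Overexpressor minus mutant was 1.57 (limma adjusted p = 0.000233) and 2.52 (limma adjusted p = 2.24e-05).

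**Figure D1:**
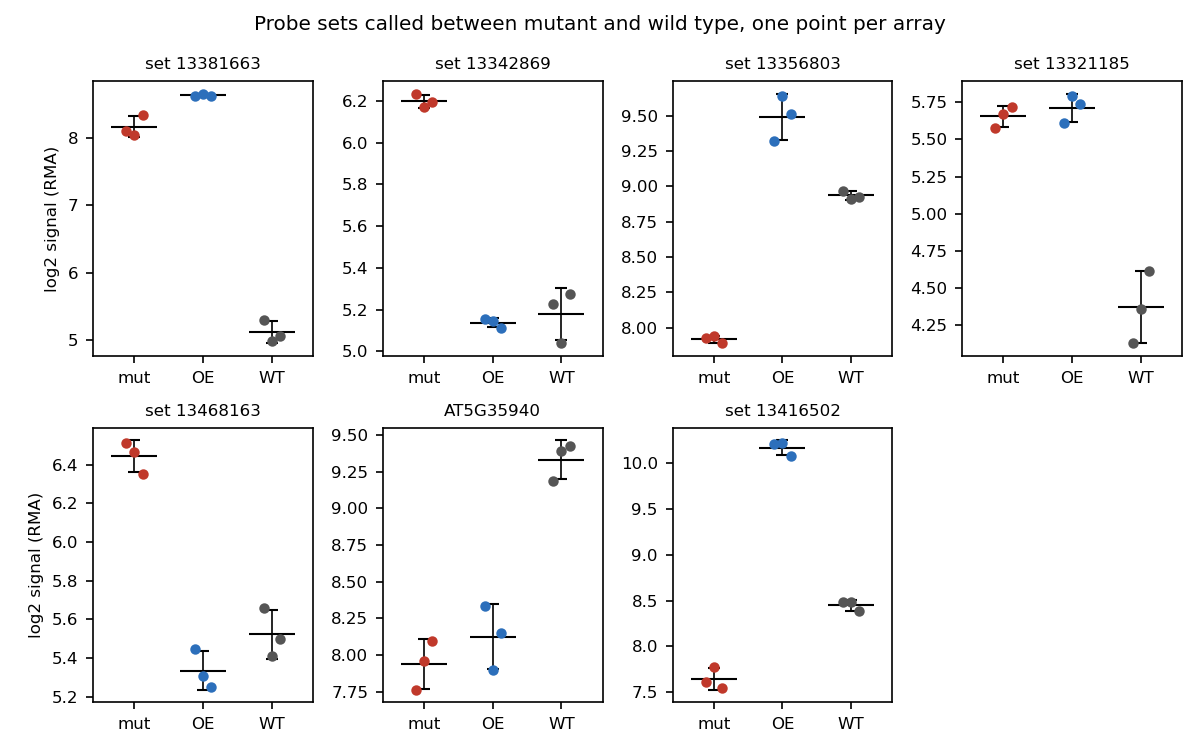
Log2 signal (RMA, vertical axes, one scale per panel) of the called probe sets in mutant (mut), overexpressor (OE) and wild-type (WT) roots, each point an array and each bar the mean ± SD of 3; 1 panel stands for the 3 identical probe sets. AT5G35940 and set 13381663 differ from wild type the same way in both lines, whereas sets 13356803 and 13416502 lie below wild type in the mutant and above it in the overexpressor.

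Below the threshold, the genes with the widest separated differences are described by their values. They are the 15 largest positive and 15 largest negative differences among genes with no overlap and an unadjusted p under 0.05, so that their separation is part of the choice. Apart from AT5G35940, the adjusted p of the remaining 29 lay between 0.134 and 0.556. Every one of the 30 kept its sign without each array in turn, which the lack of overlap makes certain in advance.

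Among the genes lower in the mutant, AT5G33355 and AT3G59930 encode defensin-like peptides, small secreted proteins with many cysteines. AT5G33355 had 3.32, 3.65 and 3.85 on the mutant arrays, against 5.15, 4.79 and 5.22 on the wild-type arrays, a difference of -1.44 ± 0.22 (SE). AT3G59930 had 2.54, 2.71 and 2.51 on the mutant arrays, against 3.51, 3.71 and 4.12 on the wild-type arrays, a difference of -1.19 ± 0.15 (SE; limma adjusted p = 0.134). Both lay near the dim end of the arrays, where log2 differences are least exact, and in both the overexpressor means, 4.05 and 2.82, stood closer to the mutant than to wild type.

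AT3G19430 and AT4G27400 belong to a small group of root proteins related to the late embryogenesis abundant proteins. AT3G19430 had 7.19, 7.33 and 6.75 on the mutant arrays, against 8.19, 8.05 and 7.88 on the wild-type arrays, a difference of -0.95 ± 0.15 (SE). AT4G27400 had 9.46, 9.56 and 9.25 on the mutant arrays, against 10.17, 10.21 and 10.02 on the wild-type arrays, a difference of -0.71 ± 0.09 (SE; limma adjusted p = 0.134). This group of 6 genes was listed after AT3G19430 and AT4G27400 had been seen to lead, so these 2 members were separated by choice. It had 5 measured, all below 0 with a median of -0.31. AT5G54370 (-0.31) was the third without overlap, 60% beside 11.6% of all genes. Without mutant array 2, mutant array 3 or wild-type array 3, 4 of the 5 lay below 0. The overexpressor arrays did not follow: AT3G19430 averaged 7.99 and AT4G27400 averaged 10.33 there. Overexpressor minus mutant was called for both, at 0.90 (limma adjusted p = 0.0278) and 0.91 (limma adjusted p = 0.00383).

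3 proteins that cut or loosen the wall followed. XTH26, a xyloglucan endotransglucosylase that cuts and rejoins wall polymers, had 6.84, 6.83 and 6.25 on the mutant arrays, against 7.62, 7.73 and 7.13 on the wild-type arrays. EXPA8, an expansin, had 7.42, 7.32 and 7.90 on the mutant arrays, against 8.31, 8.45 and 7.98 on the wild-type arrays. These differences of -0.86 ± 0.20 and -0.70 ± 0.19 (SE) left gaps between the nearest arrays that were smaller than the SD of either group. AT4G01890, a pectin lyase-like protein, was lower by 0.73 ± 0.12 on the log2 scale (SE), with 4.80, 4.57 and 4.32 on the mutant arrays, against 5.34, 5.34 and 5.21 on the wild-type arrays.

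The remaining lower genes were AT2G31540 (-0.79), a GDSL-type lipase, AT4G09130 (-0.77), a RING-type protein of the ATL family, and AT1G23160 (-0.77), of the GH3 family of enzymes that conjugate hormones to amino acids. AT5G35405 (-0.92), AT3G15440 (-0.72), AT4G04990 (-0.70) and AT3G04330 (-0.69) completed the 15. AT5G35405 rested in part on wild-type array 2, at 4.56 beside 3.40 on both other wild-type arrays, and its difference was -0.54 without that array. AT1G23160 rested in part on mutant array 1, at 4.80 beside 5.82 and 5.91, and was -0.41 without it. Wild-type array 3 was the nearest wild-type array in 11 of the 15.

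Among the genes higher in the mutant, AT3G12900 encodes the hydroxylase that makes fraxetin from scopoletin, coumarins that roots make and release when iron is scarce. It had 8.39, 7.86 and 7.20 on the mutant arrays, against 5.64, 5.54 and 6.58 on the wild-type arrays, a difference of 1.90 ± 0.39 (SE; limma adjusted p = 0.295). The gap between the groups, from mutant array 3 to wild-type array 3, was small beside the mean difference. The overexpressor averaged 6.18, near wild type, but overexpressor minus mutant did not pass (-1.64, limma adjusted p = 0.0915).

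AT1G48720 had the largest difference, 1.97 ± 0.53 (SE), with 5.52, 5.53 and 5.69 on the mutant arrays, against 2.46, 4.18 and 4.18 on the wild-type arrays. Without wild-type array 1 the difference was 1.40. AT5G39493 had 5.55, 6.12 and 5.75 on the mutant arrays, against 4.56, 3.34 and 4.15 on the wild-type arrays. AT4G01380, a plastocyanin-like protein, had 4.55, 5.19 and 4.86 on the mutant arrays, against 3.44, 3.26 and 3.50 on the wild-type arrays. None of these 3 passed the adjusted p, and in all 3 the overexpressor mean also lay above wild type, by 0.99, 2.85 and 1.50. AT4G01390, next to AT4G01380 in locus number and a TRAF-like protein, was higher by 0.93 in the mutant and by 1.42 in the overexpressor.

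AT1G05700 and AT3G46270 are receptor kinases or relatives of them. AT1G05700 had 8.012, 8.179 and 7.797 on the mutant arrays, against 6.703, 5.996 and 7.368 on the wild-type arrays, a difference of 1.31 ± 0.31 (SE). AT3G46270 was higher by 1.05 ± 0.25 (SE). Overexpressor means of 7.88 and 6.73 lay above the wild-type means of 6.69 and 6.06 in both.

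AT4G10510 is a subtilase, a secreted protease, and AT5G38940 a germin-like protein of the cell wall. AT4G10510 had 6.21, 7.19 and 6.81 on the mutant arrays, against 5.46, 5.50 and 5.42 on the overexpressor arrays and 5.52, 5.10 and 5.67 on the wild-type arrays. AT5G38940 had 7.73, 8.04 and 7.51 on the mutant arrays, against 6.78, 6.20 and 6.16 on the overexpressor arrays and 6.81, 6.40 and 6.85 on the wild-type arrays. In both, the mutant arrays stood above all other arrays. Overexpressor minus mutant was called for both, at -1.27 (limma adjusted p = 0.0458) and -1.38 (limma adjusted p = 0.0214), while mutant minus wild type was not (limma adjusted p = 0.291 and 0.295).

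AT4G12490 (1.39) and AT4G12500 (1.23), proline-rich lipid-transfer proteins of the EARLI1 type, are neighbours that were both higher and both dim, with wild-type means of 2.44 and 2.84. AT2G32650 (1.00), a cupin, AT1G44030 (0.96), a C1-domain protein, and SCPL32 (0.95), a serine carboxypeptidase-like protein, completed the higher 15. Of the 15, 5 were dim in wild type, and wild-type array 3 was the nearest wild-type array in 9.

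**Figure D2:**
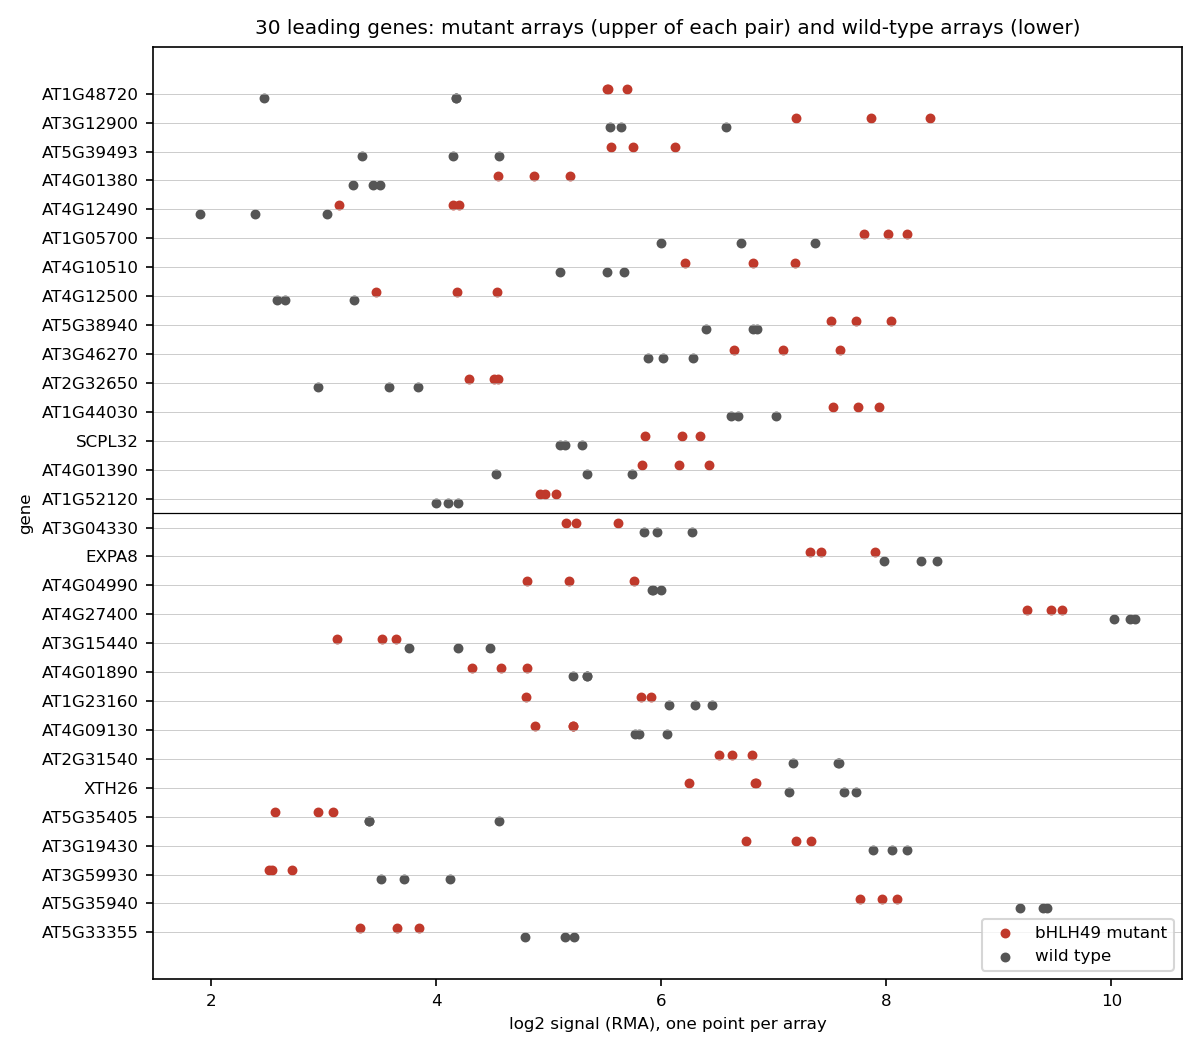
Log2 signal (RMA, horizontal axis) of the 30 leading genes, with the 3 mutant arrays drawn above the 3 wild-type arrays of each gene; genes above the line were higher in the mutant. No gene has overlapping groups, because that was a condition of the choice, and the nearest arrays of EXPA8 and AT4G01390 almost touch.

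Beside the same wild-type arrays, the overexpressor lay on the same side of wild type as the mutant for 14 of the 15 higher genes and for 10 of the 15 lower genes. Both differences share the wild-type arrays, so a common side is not independent evidence that the lines are alike. The test of overexpressor against mutant was called for 3 of the higher and 2 of the lower genes, beside 1.83% of all probe sets. The called genes were AT4G10510, AT5G38940 and AT1G52120, and AT3G19430 and AT4G27400. The difference tested leaves out the wild-type level, but its spread was estimated from all 9 arrays. The genes were chosen for wide mutant differences, and the test reuses the same mutant arrays, so the choice favours calls. For the other 25 genes that test did not pass, which does not show that the lines were alike.

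**Figure D3:**
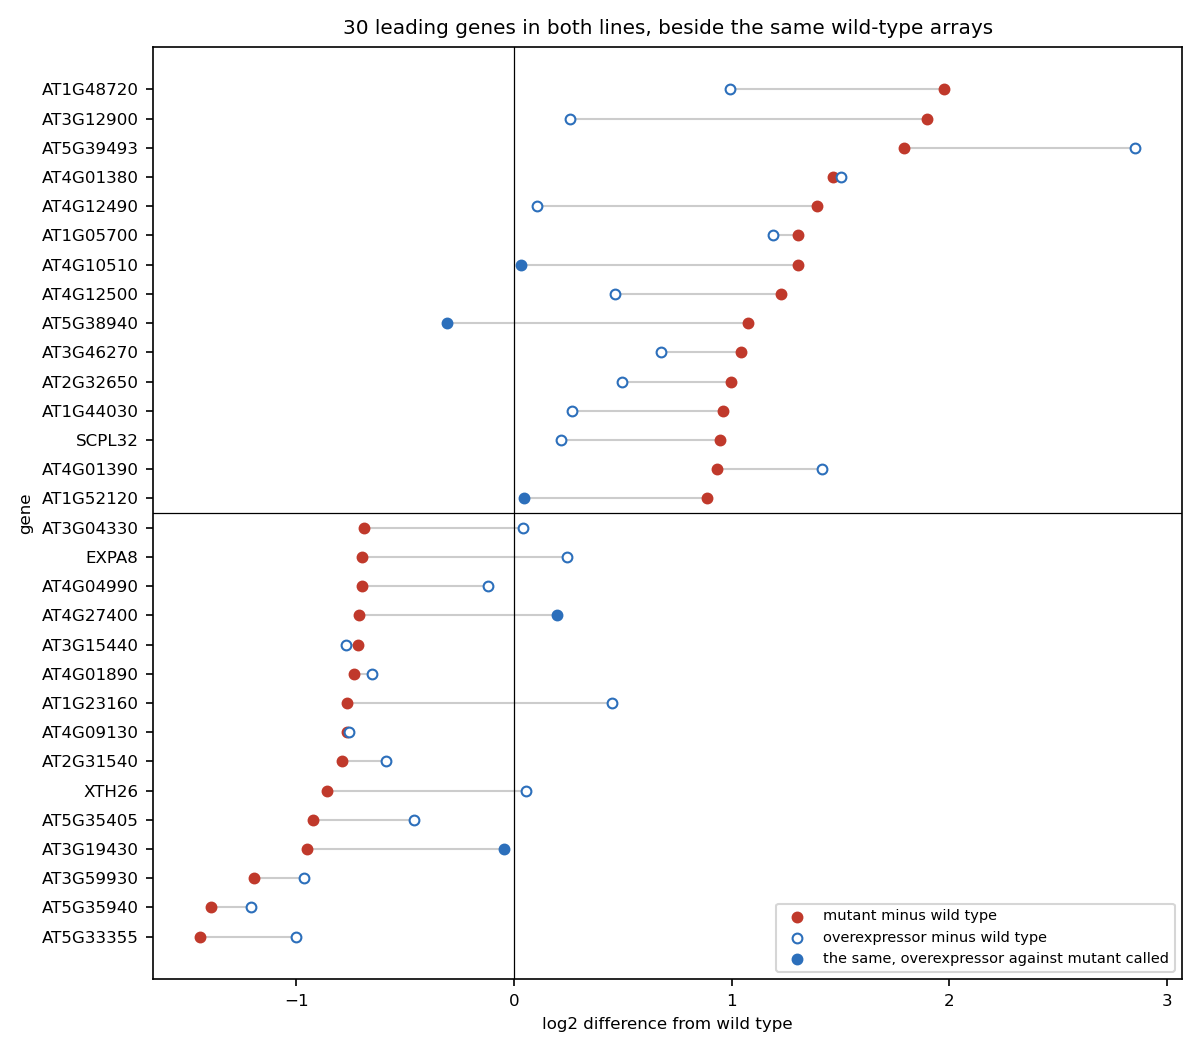
Log2 difference from wild type (horizontal axis) of the 30 leading genes in the mutant (red) and the overexpressor (blue), each a mean of 3 arrays minus the same 3 wild-type arrays; filled blue points mark genes whose overexpressor and mutant levels differed at an adjusted p below 0.05. Most pairs lie to one side of 0, and AT5G38940 and AT4G27400 are filled pairs on either side of it.

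Root hair genes were taken as a group, listed after the leading genes were seen, so that XTH26 among them was separated by choice. Of 48 listed genes only 10 were measured, all 10 lay below 0, 0 passed the test, and the median difference was -0.19. In the overexpressor 9 of the 10 also lay below 0 beside the same wild-type arrays, with a median of -0.14. Of them 5, or 50.0%, had no overlap, all lower, beside 6.27% of all measured genes on the lower side and 11.6% on either side. Their summed signal, as log2, was 13.62, 13.65 and 13.51 on the mutant arrays, against 13.63, 13.63 and 13.65 on the overexpressor arrays and 13.76, 13.82 and 13.71 on the wild-type arrays. The mutant and wild-type sums did not overlap, and whether the number of root hair cells or the RNA per cell differed was not tested.

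Among them were both root hair expansins and the peroxidases of the hair wall. EXPA18 had 10.12, 10.34 and 10.17 on the mutant arrays, against 10.61, 10.70 and 10.43 on the wild-type arrays, a difference of -0.37 ± 0.09 (SE; limma adjusted p = 0.367). EXPA7 had 8.91, 9.01 and 8.89 on the mutant arrays, against 9.14, 9.19 and 9.03 on the wild-type arrays, a difference of -0.18 ± 0.06 (SE). In EXPA7 the highest mutant and the lowest wild-type array nearly met, and the overexpressor mean of 8.93 was at the mutant level.

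XTH26, described above, had the widest difference of the group. SCN1, which keeps hair outgrowth to one place on a cell (-0.19), and AT3G09925 (-0.21) also had no overlap. AT5G04960, a pectin methylesterase (-0.29), and the peroxidases AT1G30870 (-0.19), AT4G26010 (-0.16) and AT3G49960 (-0.12) were lower on average with overlapping arrays. Wild-type array 3 was the lowest wild-type array in 8 of the 10 and mutant array 3 the lowest mutant array in 9 of the 10. Without wild-type array 3 the median was -0.24, with 9 of 10 below 0, and without mutant array 3 it was -0.15, also with 9 of 10 below 0. The count without overlap was 8 without wild-type array 3 or without mutant array 1, where fewer arrays had to be apart. Of the root hair extensins, structural wall proteins of hairs, 10 were measured: 6 lay below 0 and 4 above, with a median of -0.08.

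**Figure D4:**
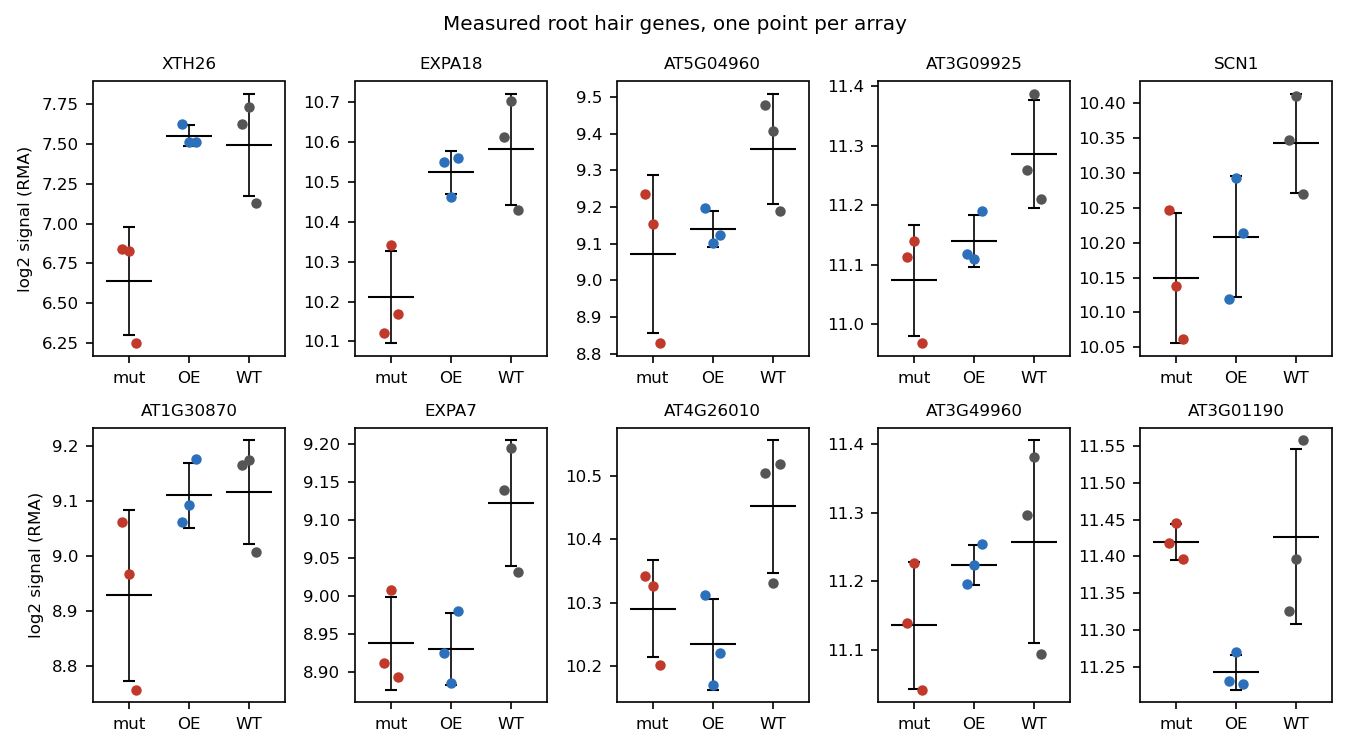
Log2 signal (RMA, vertical axes, one scale per panel) of the 10 measured root hair genes in mutant (mut), overexpressor (OE) and wild-type (WT) roots, each point an array and each bar the mean ± SD of 3. The mutant mean lies below the wild-type mean in all 10 panels, with differences from -0.86 in XTH26 to -0.01 in AT3G01190.

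Other enzymes of the wall were counted by family. Of 10 xyloglucan endotransglucosylases found by name, 6 lay above 0 and 4 below, with a median of 0.00. Of them 2 were lower without overlap, 20% beside 11.6% of all genes. Of 4 pectin methylesterases and inhibitors found by name 3 lay above 0 and 1 below. The pectin methylesterase AT5G04960, given above with the root hair genes, is not among these 4. Of 26 pectate lyases, which cut unmethylated pectin, 23 were measured, 17 below 0 and 6 above, with a median of -0.06. There were 5 members lower and 0 higher without overlap, 21.7% beside 11.6% of all genes, and without mutant array 2 the median was -0.02. AT5G48900 had 7.45, 7.26 and 7.29 on the mutant arrays, against 8.26, 8.27 and 8.33 on the overexpressor arrays and 8.01, 7.90 and 7.82 on the wild-type arrays. Its difference from wild type was -0.57 ± 0.07 (SE; limma adjusted p = 0.134), and the overexpressor arrays stood on the other side of wild type, with overexpressor minus mutant called at 0.95 (limma adjusted p = 0.00162). AT3G07010 (-0.36) and AT1G11920 (-0.36) were lower as well.

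Of 24 expansins, 16 lay below 0 and 8 above, with a median of -0.07, beside -0.01 for all genes. The separated members were EXPA8, EXPA18, EXPA7 and EXPB1 (-0.11) on the lower side and EXPA4 (0.31) on the higher, 20.8% beside 11.6% of all genes. The 19 measured members of the word family of glycosyl hydrolases, all GH9 endoglucanases, had a median of -0.09 with 13 below 0. Yet only GH9C1 (-0.29) had no overlap, 5.26% beside 11.6% of all genes. In the 39 subtilases and serine carboxypeptidases found by name, 25 lay below 0, and 7 were lower and 1 higher without overlap, 20.5% beside 11.6% of all genes. The subtilase AT4G10510, higher by 1.31 without overlap, carries no such name and is not counted among them. The 32 measured genes with an SCPL symbol, taken alone, also had 7 lower and 1 higher without overlap, 25% beside 11.6% of all genes. scpl16 had 7.13, 7.40 and 6.85 on the mutant arrays, against 8.20, 8.53 and 8.35 on the overexpressor arrays and 7.73, 7.66 and 7.58 on the wild-type arrays, and was the second widest after SCPL32. scpl22 (-0.34) followed it. In all of these families 0 members passed the test.

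The last 3 families are among the 8 found by name, the plastid genome set apart, whose medians lay farthest from that of all genes, and the other 5 follow. Autophagy genes had a median of -0.06, with 8 of 11 below 0 and ATG8H (-0.08) alone without overlap, 9.09% beside 11.6% of all genes. The IQD proteins, scaffolds that bind calmodulin and microtubules, had a median of -0.06 with IQD20 (-0.36) and iqd32 (-0.12) without overlap, 11.8%. Sugar transporters and nitrate and peptide transporters both had a median of -0.04. SWEET17 (0.30) and SWEET2 (-0.24) were separated in the first, 12.5%, and AT2G26690 (-0.51) in the second, 7.14%. The bZIP transcription factors had the only positive median of the 8, 0.05, although their separated members were mostly lower, 6 against 1. Together these were 28% of the family, beside 11.6% of all genes, with bZIP48 (-0.57), bZIP58 (-0.33) and EEL (-0.27) the widest. The median and the widest members of this family thus pointed in opposite directions. Genes were also grouped by the prefix of their symbols, in 25 groups that share members with the families above. Their medians ran from -0.09 (EXPA) to 0.07 (BZIP) and 0 genes passed.

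Class III peroxidases, secreted enzymes that stiffen or loosen walls by making or using peroxide, were spread to both sides. Of 73, 64 were measured, 33 above 0 and 31 below, with a median of 0.01. With an array left out the median lay between -0.03 and 0.03. Separated members numbered 8 higher and 9 lower, 26.6% beside 11.6% of all genes, and 0 passed the test. AT4G08780 (0.85), AT2G38390 (0.84), AT5G64110 (0.66) and AT5G64120 (0.48) were higher. AT5G64110 had 5.75, 5.94 and 5.90 on the mutant arrays, against 5.24, 5.24 and 5.05 on the overexpressor arrays and 5.33, 4.94 and 5.33 on the wild-type arrays. Its neighbour AT5G64120 was among the brightest, with 10.99, 11.21 and 11.43 on the mutant arrays, against 10.73, 10.64 and 10.80 on the wild-type arrays. On the lower side were AT1G34510 (-0.54), AT4G17690 (-0.36), AT2G39040 (-0.33) and AT5G51890 (-0.28).

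Receptor kinases with leucine-rich repeats and a malectin-like domain, called subfamily I, were counted next. Of 42, 36 were measured, 23 above 0 and 13 below, with a median of 0.06, and 8 were higher and 3 lower without overlap, 30.6% beside 11.6% of all genes. Without mutant array 1 the median was 0.03. AT5G59680 had 7.54, 7.46 and 7.48 on the mutant arrays, against 6.58, 6.27 and 7.04 on the wild-type arrays, a difference of 0.86 ± 0.18 (SE; limma adjusted p = 0.300). AT1G51870 (0.64) and AT1G07560 (0.51) followed AT1G05700 and AT5G59680. In all 4 the overexpressor mean also lay above wild type, by 1.19, 0.91, 0.91 and 0.44. Of the other secreted families, germin-like proteins had a median of -0.05 over 19 genes. Without overlap 2 were higher, AT5G38940 and AT5G38910 (0.80), 10.5% beside 11.6% of all genes. The 13 EARLI1-type proteins had 3 higher and 3 lower without overlap, 46.2%, the widest of the lower being AT5G46900 (-0.48). These lists were assembled after the leading genes were seen. AT1G05700, AT5G38940, AT4G12490 and AT4G12500 were therefore separated by choice, which raises the shares of their families.

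AT3G12900 belongs to the genes of the response to iron deficiency. Of 33 listed, 10 were measured, 8 above 0 and 2 below, with a median of 0.25, and 0 passed, in a list assembled after AT3G12900 had been seen to lead. Of them 2 were higher and 1 lower without overlap, 30% beside 11.6% of all genes. In another iron deficiency list, of 45 symbols, 4 were measured, 2 above 0 and 2 below, with a median of 0.08. AT1G74770, a ubiquitin ligase that limits iron uptake, had 10.97, 10.64 and 10.59 on the mutant arrays, against 10.34, 10.35 and 10.58 on the wild-type arrays. AT3G58060, a metal transporter (0.53), and BHLH101, a regulator of iron uptake (0.43), had overlapping arrays. ZIP9, a transporter of the zinc and iron family, went the other way, with 5.86, 5.49 and 5.23 on the mutant arrays, against 5.97, 6.15 and 5.98 on the wild-type arrays. The median of the group was 0.13 without wild-type array 2 and 0.29 without wild-type array 3, and mutant array 3 was the lowest mutant array in 9 of the 10 genes.

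Nuclear genes for photosynthesis were taken as markers of green tissue. Among these, the genes of chlorophyll synthesis and the plastid-encoded genes described below, 0 passed the test. Of the nuclear genes for photosynthesis 13 of 62 were measured, 11 above 0 and 2 below, with a median of 0.13. In the overexpressor the median was 0.10, with 8 above 0. Only 2 had no overlap, 15.4% beside 11.6% of all genes, among them PSBY (0.45). LHCB4.1, an antenna protein of photosystem II, had 6.63, 6.77 and 6.99 on the mutant arrays, against 6.72, 6.37 and 6.50 on the wild-type arrays. The summed signal of the 13, as log2, was 10.25, 10.28 and 10.39 on the mutant arrays, against 10.15, 10.09 and 10.18 on the overexpressor arrays and 10.24, 10.07 and 10.16 on the wild-type arrays. The mutant sums were the 3 highest of the 9, by a margin of less than 0.01 at the nearest wild-type array. The part of green tissue in the other differences was not tested.

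In chlorophyll synthesis 5 of 7 measured genes lay above 0. PORB, which reduces protochlorophyllide in light, had 4.91, 5.35 and 4.90 on the mutant arrays, against 4.36, 4.42 and 4.16 on the overexpressor arrays and 4.41, 4.37 and 4.22 on the wild-type arrays. AT1G74470, the geranylgeranyl reductase that supplies the phytol tail, had 7.44, 7.13 and 7.22 on the mutant arrays, against 6.80, 6.71 and 6.80 on the wild-type arrays. Their differences were 0.72 ± 0.13 and 0.50 ± 0.11 (SE; limma adjusted p = 0.291 and 0.346). CHLM (0.17) was the third gene without overlap, 42.9% of the 7 beside 11.6% of all genes.

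The plastid genome had 63 measured genes. Of these 51 lay above 0 and 12 below, with a median of 0.06, 13 higher and 0 lower without overlap and 0 called. The share without overlap was 20.6%, beside 11.6% of all genes. psbZ, a small subunit of photosystem II, was the widest, with 9.94, 9.92 and 10.12 on the mutant arrays, against 9.60, 9.64 and 9.79 on the wild-type arrays. Mutant array 3 was the lowest mutant array for 50 of the 63. When the arrays were centred on their medians the median of the 63 was 0.03. The count of separated members was 33 without mutant array 3 and 27 without wild-type array 3, in which fewer arrays had to be apart.

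**Figure D5:**
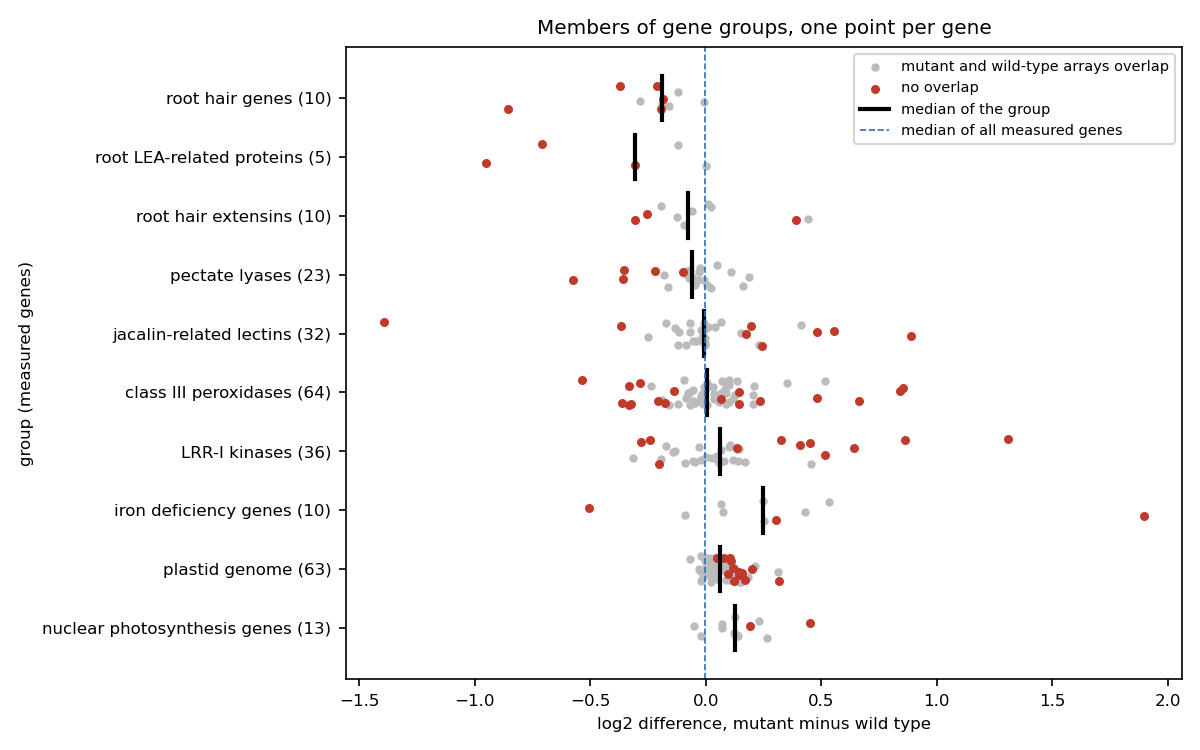
Log2 difference of mutant minus wild type (horizontal axis) for the measured members of 10 gene groups, one point per gene, red where the 3 mutant and 3 wild-type arrays do not overlap; black bars are group medians and the dashed line is the median of all measured genes. Root hair and root LEA-related genes lie to the left, peroxidases and jacalin-related lectins to both sides, and iron deficiency and photosynthesis genes mostly to the right.

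The lists of hormone, patterning and nutrient genes held few measured members. Of 797 listed genes in 27 lists 105 were measured, in 23 lists, and 0 passed. Of 35 genes of the early auxin response 11 were measured, 3 above 0 and 8 below, with a median of -0.05. Without overlap 2 were higher, GH3.3 and LBD16, and 2 lower, HAT2 and WES1 (-0.08), 36.4% beside 11.6% of all genes. GH3.3, which conjugates auxin to amino acids, had 7.95, 8.00 and 8.00 on the mutant arrays, against 8.58, 8.71 and 8.50 on the overexpressor arrays and 7.08, 6.53 and 7.68 on the wild-type arrays. Its wild-type arrays were spread over more than 1 unit while its mutant arrays were nearly equal, and the difference was 0.89 ± 0.25 (SE; limma adjusted p = 0.443). LBD16, a regulator of lateral root initiation, had 7.81, 7.74 and 7.84 on the mutant arrays, against 7.56, 7.53 and 7.64 on the wild-type arrays. HAT2, an auxin-induced homeodomain factor, had 10.65, 10.44 and 10.30 on the mutant arrays, against 11.08, 11.06 and 11.11 on the overexpressor arrays and 10.68, 10.70 and 10.70 on the wild-type arrays. HAT2 thus lay below wild type in the mutant and above it in the overexpressor, with overexpressor minus mutant called at 0.62 (limma adjusted p = 0.0126).

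Among 7 root patterning genes the 1 without overlap, 14.3% beside 11.6% of all genes, was UPB1, a bHLH factor that limits the root meristem. UPB1 had 5.52, 5.50 and 5.74 on the mutant arrays, against 5.99, 6.13 and 5.80 on the wild-type arrays. All 4 measured genes of the brassinosteroid and gibberellin list lay above 0, with a median of 0.10. The gibberellin receptor GID1A alone was separated, 25% of the 4 beside 11.6% of all genes. GID1A had 8.17, 8.00 and 8.12 on the mutant arrays, against 7.69, 7.84 and 7.81 on the wild-type arrays. Of 6 cell cycle genes 4 lay below 0, with a median of -0.02. The kinase AUR2 (0.20) alone was separated, 16.7% beside 11.6% of all genes.

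ICL and TRI are given because overexpressor minus mutant was called in both, and were picked after their values were seen. ICL, isocitrate lyase of the glyoxylate cycle that turns stored fat into sugar, had 7.82, 7.86 and 7.92 on the mutant arrays, against 5.96, 5.87 and 5.72 on the overexpressor arrays and 7.25, 6.81 and 7.38 on the wild-type arrays. The mutant was the highest and the overexpressor the lowest of the 3, with mutant minus wild type at 0.72 ± 0.14 (SE; limma adjusted p = 0.295) and overexpressor minus mutant called at -2.02 (limma adjusted p = 0.00116). TRI, a tropinone reductase-like dehydrogenase, had 7.12, 7.69 and 7.28 on the mutant arrays, against 6.26, 6.25 and 6.07 on the overexpressor arrays and 6.81, 6.81 and 6.82 on the wild-type arrays. Its family had a median of 0.14 over 11 measured genes, 7 above 0 and 1 called between overexpressor and mutant. Without overlap 2 were higher, TRI and AT2G29320 (0.42), and 1 was lower, 27.3% beside 11.6% of all genes.

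AT5G41300 and AT5G41290 encode neighbouring cysteine-rich repeat secretory proteins. AT5G41300 had 7.44, 7.67 and 7.55 on the mutant arrays, against 5.64, 5.57 and 5.67 on the overexpressor arrays and 7.14, 7.03 and 7.03 on the wild-type arrays. AT5G41290 followed the same order, with means higher in the mutant by 0.32 ± 0.13 (SE). Neither passed against wild type, with limma adjusted p of 0.224 and 0.594, and both were called for overexpressor against mutant. Their family of 30 measured genes had a median of -0.03.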

How the data were processed

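The authors deposited 1 table of log2 values for 9 single-channel arrays, made with RMA per the submitters' processing notes. RMA corrects background, equalises array distributions and summarises probes. Its version is not given in the sources used here. It held 0 missing values and 5529 probe sets that repeat an earlier one.

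Probe sets were named from the platform annotation and RefSeq (TAIR10.1). Of 16722 with 1 gene, 16574 matched RefSeq and 148 kept the annotation's name, 759 had several genes and 20927 were not listed. For a gene with several probe sets the brightest was used.

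limma 3.58.1 (R 4.3.3, lmFit and eBayes, two-sided) was fitted to all 9 arrays without a block, with 6 residual degrees of freedom. P-values were adjusted over 38408 probe sets, threshold 0.05. The fit was tested on simulated data, in which 6.41% of calls were false. Arrays have no read depth, and their number limits precision.

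Genes were named by rule: called ones, the 15 widest separated differences each way, members of gene lists, and the 3 widest separated members of 8 name families of 10 or more genes whose medians lay farthest from that of all genes. The plastid genome, a set taken by chromosome and described apart, is not among them, though its median lay farther out than that of 6. Members and lists were chosen with earlier results of these data known. The name patterns were corrected after values were seen, which put the sugar and the nitrate and peptide transporters among the 8 in place of plastid-encoded genes and pentatricopeptide repeat proteins. The locus lists (peroxidases, jacalin-related lectins, root hair genes, receptor kinases and 11 others) were assembled from general knowledge after the leading genes were seen, and other genes beyond the rule were picked from them after their values were seen.

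Alternatives were a replicate block, trend and robust eBayes, array weights, 6 arrays only, 2 scalings, 2 filters on dim probe sets, probe sets with 1 gene, repeats left out, all probe sets of a gene, and each array left out in turn.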

Additional observations from a re-analysis of the deposited data

Results flagged for a closer look

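In these genes and probe sets the difference from wild type itself differed between the lines, by the test of overexpressor against mutant (limma adjusted p below 0.05, 1.83% of all probe sets called). The values are overexpressor minus mutant on the log2 scale. They were 2.523 for probe set 13416502, 1.574 for 13356803, -1.111 for 13468163 and -1.063 for 13342869. Among secreted and wall proteins they were 1.230 for scpl16, 0.953 for AT5G48900, 0.907 for AT4G27400, 0.903 for AT3G19430, 0.682 for EXPA4, -0.688 for AT5G64110, -1.275 for AT4G10510, -1.380 for AT5G38940, -1.832 for AT5G41290 and -1.922 for AT5G41300. The lectin AT1G52120 had -0.843. In metabolism ICL had -2.016, TRI -1.170 and PORB -0.742. The transcription factors EEL and HAT2 had 1.145 and 0.621. Of these 20, only the 4 unnamed probe sets were also called between mutant and wild type. These probe sets and the leading genes were chosen by their mutant differences, and the test reuses the same mutant arrays, which favours calls.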

How the results depend on the processing

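The 9 probe sets called between mutant and wild type fell to 1 with a replicate block, 2 on the 6 arrays alone and 1 among probe sets with 1 gene, where fewer were tested. Leaving out 1 array left 1 to 6, with 1, 2 and 6 without wild-type arrays 1, 2 and 3 and 1, 1 and 2 without mutant arrays 1, 2 and 3. The other alternatives gave 10 to 13, and probe sets above the 50th percentile split 3 higher to 10 lower. Of the genes in lists and families 1 was called, 0 with a replicate block, 0 on 6 arrays, 0 to 0 with an array left out and 3 above the 50th percentile, where AT4G27400 and AT5G48900 joined AT5G35940. AT5G35940 passed in 8 of 16 alternatives, with adjusted p from 0.0142 to 0.237. The 20 calls of overexpressor against mutant among the genes described became 13 to 18 with an array left out, 13 without mutant array 2, overexpressor array 2 or overexpressor array 3. Equal replicate numbers did not deviate together (r from -0.05 to 0.03, under 0.1 for each pair), so the numbers do not pair the samples. The groups' counts with arrays left out were added after the data were seen.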

Other observations

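The deposited values hold many exact ties. Of all probe sets, 15460 (40.3%) had one value, to 6 decimals, on 2 or more of the 9 arrays, and of those with 1 gene 8984 (53.7%) did. A single value on all 3 mutant arrays was found for 417 probe sets, and on all 3 wild-type arrays for 394. CHLM is an example, with 7.02 on each wild-type array.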
